A study of Danio rerio with 6 samples.

Results

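This comparison sets 1 library of ventricular cells from zebrafish heterozygous for a cloche allele (het, genotype clofv087b/+) against 1 library from wild-type fish (WT), both taken 3 days after amputation of heart tissue (3 dpa). The series holds 6 libraries, one for each of the 2 genotypes at sham, 3 dpa and 7 dpa. The cells compared were the barcodes of these 2 libraries with at least 500 unique molecular identifiers (UMIs, 1 per captured RNA molecule), at least 200 genes and at most 30% mitochondrial UMIs. That left 9090 WT and 8994 het cells, 18084 of the 65399 cells that passed the same limits in all 6 libraries. Each library pooled the ventricles of 15 adult fish, so differences between single fish cannot be seen, and neither group had a second library. No test between the genotypes was possible, and no p-value or standard error is given. Every interval below is an exact 95% interval of the counts and covers counting error only. Protease digestion ran for 3 h at 4 °C, single cells were sorted after a Hoechst stain, and each library was loaded with about 12000 cells of over 85% viability on a 3′ droplet kit, per the labels' protocols. The fish were heterozygotes, and so carried a wild-type copy of the locus beside the allele. The labels call the control fish WT, while the names of the deposited matrices use sib in its place, which the labels do not explain. The strain background and the sequence change of the allele were not given in the sources used here.

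The cloche locus encodes Npas4l, a transcription factor of the bHLH-PAS family that zebrafish embryos need to form endothelial and blood cells. It acts upstream of the factors etv2, tal1 and lmo2 in those lineages. An adult zebrafish ventricle grows back after amputation. Macrophages enter the wound, the epicardium and its fibroblasts divide and lay down matrix, endocardial and vascular endothelium respond, and cardiomyocytes near the wound dedifferentiate and divide. Thrombocytes are the nucleated fish counterpart of platelets. The study's title names cloche as a platelet factor in this process.

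The WT library held 101340119 UMIs in 9868 deposited barcodes, and the het library 63752936 UMIs in 9700. The median kept cell had 7318 UMIs, 1755.5 genes and 8.20% mitochondrial UMIs in WT, against 4167.5 UMIs, 1182 genes and 9.04% in het. The het library was the shallowest of the 6, the others holding between 75454446 and 117947578 UMIs. The 2 libraries shared 18 barcode sequences, 0.200% of the smaller set, within the range of 18 to 54 over all 15 pairs of libraries. npas4l itself was counted 66 times in WT and 42 times in het, which came to 0.666 and 0.674 CPM (counts per 1000000 UMIs) and a log2 ratio of het over WT of 0.02 (-0.58 to 0.60). Its UMIs lay in 53 and 29 cells, mostly cardiomyocyte-like (39 and 33 UMIs) and macrophage-like (16 and 6 UMIs), and no thrombocyte-like, erythrocyte-like, mural-like or neutrophil-like cell of either library had one. A transcript count does not show whether an allele is functional, so the label was not checked by it. Of the 11 genes listed next to npas4l on chromosome 13, all but LOC100329773, which was absent from the counts, lay on the same side. On that side 5 had at least 50 UMIs, klhdc3 (120 and 44 UMIs) in WT only. The ratios of these 5 ran from -1.21 to 0.34 with a median of -0.40. The 1 past 2-fold was lbh, a transcriptional cofactor gene, with 7.15 CPM in WT and 3.1 CPM in het. Its ratio was -0.63 in the sham pair and -0.72 in the 7 dpa pair. Of all genes with at least 50 UMIs in the higher library 4.94% were past 2-fold.

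Cells were put into classes by the raw UMIs of marker genes, and a class carries the ending -like because it rests on those markers alone. In both libraries most cells were cardiomyocyte-like (3473 in WT and 3698 in het, 38.2 and 41.1%) or macrophage-like (2750 and 2373 cells, 30.3 and 26.4%). Epicardial/fibroblast-like cells made 9.56 and 9.74% (869 and 876 cells) and endothelial-like cells 3.21 and 4.00% (292 and 360 cells). Erythrocyte-like cells numbered 145 and 247, mural-like cells 66 and 75, and thrombocyte-like cells 53 and 68. On the log2 scale the het share was higher by 0.11 (0.04 to 0.17) for cardiomyocyte-like and by 0.32 (0.09 to 0.55) for endothelial-like cells, and higher by 0.78 (0.48 to 1.09) for erythrocyte-like cells. It was lower for macrophage-like cells, at -0.20 (-0.28 to -0.12). The epicardial/fibroblast-like share differed by 0.03 (-0.11 to 0.16) and the thrombocyte-like share by 0.37 (-0.16 to 0.92), both within counting error. B-cell-like cells numbered 36 in WT and 6 in het. Cells with markers of several classes (1184 and 1107) and cells below the marker threshold (161 and 144) stayed unnamed, and doublets were not removed.

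At the other stages the log2 ratio was -0.73 (sham) and -0.25 (7 dpa) for cardiomyocyte-like, -0.11 and 0.27 for macrophage-like, 0.12 and -0.68 for endothelial-like, 2.96 and 0.23 for erythrocyte-like and 2.29 and 0.71 for thrombocyte-like cells. The 3 dpa ratio was thus not the smallest of the stages in every class. Depth per cell moved with the cardiomyocyte result. The median cardiomyocyte-like cell had 15401 UMIs in WT and 7328 in het, and 17.7% of them in WT but 34.8% in het had fewer than 2000 UMIs. When shares were taken over cells of at least 1000 UMIs, the cardiomyocyte-like ratio became -0.03, the macrophage-like ratio 0.01 and the erythrocyte-like ratio 0.04. The direction of the cardiomyocyte-like and macrophage-like shares thus depended on whether cells with few UMIs were counted. The cut left out 389 WT and 1006 het cardiomyocyte-like cells, so it cannot show which direction is right. Macrophage-like cells had similar medians of 6132 and 5590 UMIs, and endothelial-like cells of 2162.5 and 2093.5.

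**Figure D1:**
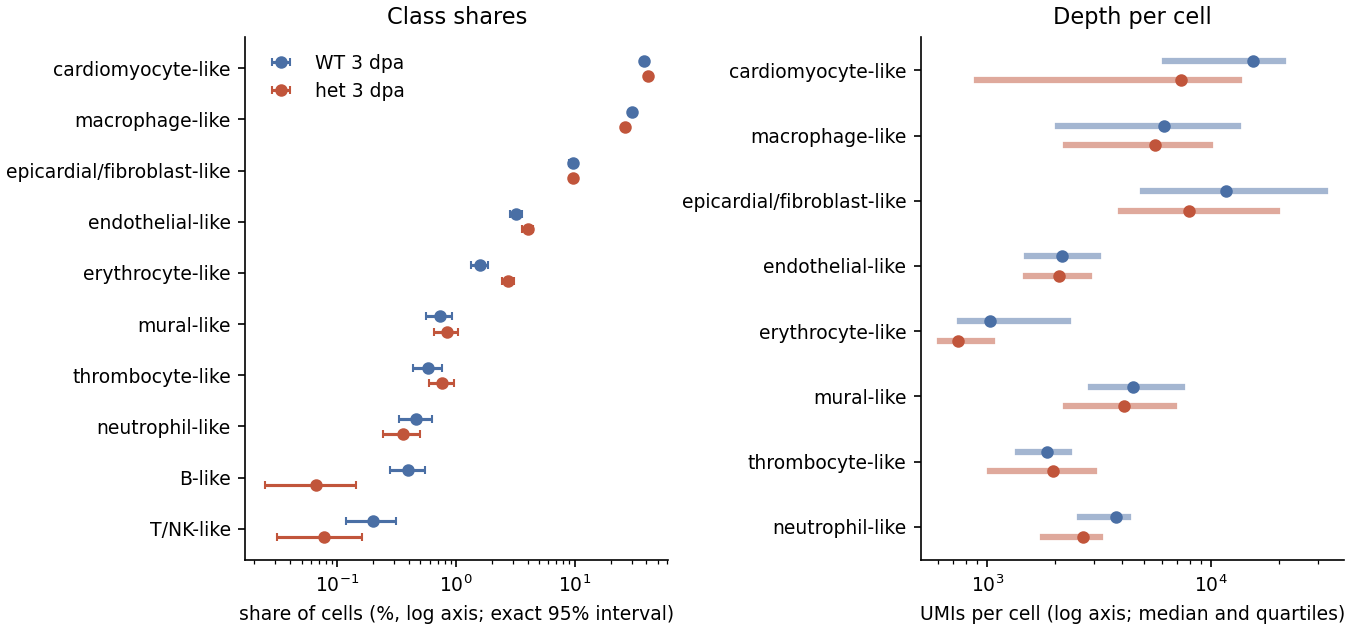
Share of each cell class among all kept cells (left, percent on a log axis, with exact 95% binomial intervals) and UMIs per cell by class (right, log axis, median as a point and quartiles as a bar) in the WT and het 3 dpa libraries. The shares of the main classes lie close together, while the cardiomyocyte-like median is 15401 UMIs in WT and 7328 in het.

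Each class carried its own markers in both libraries. RNA of other classes was present too and differed between the libraries. The summed erythrocyte markers, mostly globins, came to 109 CPM in WT and 354 CPM in het in cardiomyocyte-like cells and to 249 and 455 CPM in macrophage-like cells. Within erythrocyte-like cells the same sum was 438110 and 282838 CPM. Macrophage markers came to 968 and 688 CPM in endothelial-like cells and to 1314 and 718 CPM in thrombocyte-like cells. Cardiomyocyte markers came to 2102 and 2293 CPM in macrophage-like cells. The transcript zgc:158463, which the RefSeq table lists as ribosomal RNA and which was chosen after its values were seen, had 17975 CPM in WT and 32450.1 CPM in het in cardiomyocyte-like cells, a log2 ratio of 0.85, against 0.20 in macrophage-like and 0.02 in endothelial-like cells. The part of these differences in the gene results below was not tested.

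Over all cells, the 10 highest named genes included a marker each of mural, endothelial and epicardial cells, and the 10 lowest included 2 ribosomal protein genes, a respiratory chain gene, a chemokine and an interferon-induced gene. A gene counted as measured with at least 50 UMIs in the library where its CPM was higher, and as called when the 2 CPM values differed at least 2-fold. Of 15034 genes measured, 122 (0.811%) were called higher and 621 (4.13%) lower in het, 4.94% in either direction. The median ratio of all genes was -0.07. A gene lower in het is counted in the deeper library and so passes the minimum at a lower CPM. With the same CPM minimum for both libraries 482 genes were lower and still 122 higher. In such sums over all cells, fewer cells of a class and less RNA per cell cannot be told apart.

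rgs5a, a marker of mural cells, had 18.8 CPM in WT and 45.9 CPM in het, a log2 ratio of 1.29. aqp8a.1, an aquaporin used as an endothelial marker, had 27.4 CPM in WT and 70.7 CPM in het, a ratio of 1.37 (1.30 to 1.44). With every class given the same weight in both libraries the aqp8a.1 ratio was 0.64. The epicardial transcription factor tcf21 was at 13.5 CPM in WT and 29.8 CPM in het (1.14), and mgp, the matrix Gla protein that limits calcification, at 30.7 CPM in WT and 67.4 CPM in het (1.13). Other markers of these cells were lower in het within their own class: kcne4 was at 1892 and 1027 CPM in mural-like cells, plvapb at 736 and 246 CPM in endothelial-like cells and tbx18 at 136 and 65.2 CPM in epicardial/fibroblast-like cells. si:ch211-212k18.8 (8.97 and 31 CPM), si:ch211-250g4.3 (14.3 and 36.2 CPM) and wu:fi09b08 (86.8 and 205 CPM) completed the upper end with the library-wide genes given below. At the lower end NDUFB1, a subunit of respiratory complex I, had 38.4 CPM in WT and 1.56 CPM in het, a ratio of -4.62 (-4.93 to -4.33), with a UMI in 2354 and 92 cells. The chemokine gene ccl34b.8 had 56.2 CPM in WT and 8.12 CPM in het (-2.79, interval -2.92 to -2.66). The gene listed as NPC2 (1 of many), of the family of lysosomal cholesterol carriers, had a ratio of -2.41, and rpl26, a protein of the large ribosomal subunit, had 29.1 CPM in WT and 6.42 CPM in het (-2.18). Names such as NPC2 (1 of many), ccl34b.8 and rpl26 belong to families with similar copies, between which reads can be split or lost, so their ratios are uncertain.

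Of 33 gene lists, 20 had no member past 2-fold over all cells. The interferon-stimulated genes had the lowest list median, -0.53, and the next list stood at -0.21. The list of blood and vessel transcription factors that work with cloche had the highest median, 0.44 over 10 measured genes. The erythroid factor gata1a was higher, with 0.343 CPM in WT and 1.04 CPM in het (1.60, interval 0.98 to 2.25, 34 and 65 UMIs), and the progenitor factor myb lower (-1.09). Since gata1a reached the UMI minimum in het only, its call and its part in the list median rest on its own direction. tal1, a master factor of blood formation, had a ratio of 0.94, the cofactor lmo2 had 8.08 and 12.7 CPM (0.65), the endothelial factor etv2 0.29 and fli1b -0.01. These levels stood beside larger erythrocyte-like and endothelial-like shares of the het library, and the part of the shares in them was not tested. On cells of at least 1000 UMIs the log2 ratio of the erythrocyte-like share was 0.04. Within endothelial-like cells lmo2 was at 107 and 139 CPM (0.38), etv2 at 94.6 and 92.6 CPM (-0.03) and fli1b at a ratio of -0.09, none of them called.

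A set of genes differed the same way in every main class. Of 1775 genes measured in cardiomyocyte-like, macrophage-like, epicardial/fibroblast-like and endothelial-like cells, 3 were at least 2-fold higher in het in all 4 classes and 22 at least 2-fold lower. This definition was made after the data were seen. In endothelial-like cells mhc1uba (25 and 111 UMIs) reached the UMI minimum in het only. There mt-nd4l (94 and 26 UMIs), ndufa1 (121 and 48) and ndufa2 (74 and 41) reached it in WT only. The counts of 3 and 22 thus rest in part on members picked by their own direction. Whether both libraries were prepared in the same batch and counted against the same annotation was not given in the sources used here. Genotype and library thus cannot be told apart for the genes of this set or for others that recur across classes. The higher ones were atp6v0e1, a subunit of the vacuolar proton pump, with 552 CPM in WT and 1706 CPM in het over all cells (1.63), the MHC class I gene mhc1uba of the U lineage, with 16.5 CPM in WT and 50.9 CPM in het (1.63), and si:ch211-5k11.8, for which the RefSeq table gives the globin synonym hbaa1.2, with 514 CPM in WT and 1488 CPM in het (1.53). Of the 22 lower genes, 5 encode cytosolic ribosomal proteins, 5 nuclear subunits of oxidative phosphorylation 3 mitochondrial proteins made from the mitochondrial genome, and 1, rsad2, is an interferon-stimulated gene. rps29, of the small ribosomal subunit, had 4950.3 CPM in WT and 1042 CPM in het, a ratio of -2.25 (-2.26 to -2.24). By class its ratio was -2.26 in cardiomyocyte-like, -2.20 in macrophage-like, -2.29 in epicardial/fibroblast-like, -2.10 in endothelial-like, -1.91 in erythrocyte-like and -2.35 in thrombocyte-like cells. rpl38 had 3311 CPM in WT and 833 CPM in het (-1.99), mt-co1, a core subunit of cytochrome oxidase, had 6586 CPM in WT and 2066 CPM in het (-1.67), fkbp3, a peptidyl-prolyl isomerase, had 59.8 CPM in WT and 10.6 CPM in het (-2.49) and ost4, a small subunit of the oligosaccharyltransferase, had 196 CPM in WT and 37.9 CPM in het (-2.37).

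Of 77 ribosomal protein genes measured over all cells, 7 were called lower and the list median was -0.01. Of 86 nuclear genes of oxidative phosphorylation 9 were called lower, with a median of 0.02. Both are larger shares than the 4.13% of all genes called lower, while both medians lie above the -0.07 of all genes. Of 13 genes of the mitochondrial genome 3 were called lower and 9 stood below 0, with a median of -0.19; among those above 0, mt-co3 was at 18633 and 24665 CPM in cardiomyocyte-like cells (0.40). The 25 library-wide genes made 3.36% of UMIs in WT and 1.42% in het. In the sham pair 20 of them had the other sign, and 2 were past 2-fold the same way; in the 7 dpa pair these counts were 17 and 1. Of the genes called lower in a class and measured in another main class, 72 of 323 in cardiomyocyte-like, 77 of 304 in macrophage-like, 52 of 281 in epicardial/fibroblast-like and 36 of 93 in endothelial-like cells had a median ratio in the other classes above -0.5. Of those called higher, 10 of 35, 9 of 27, 27 of 46 and 22 of 32, in the same order of classes, had a median in the others below 0.5.

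**Figure D2:**
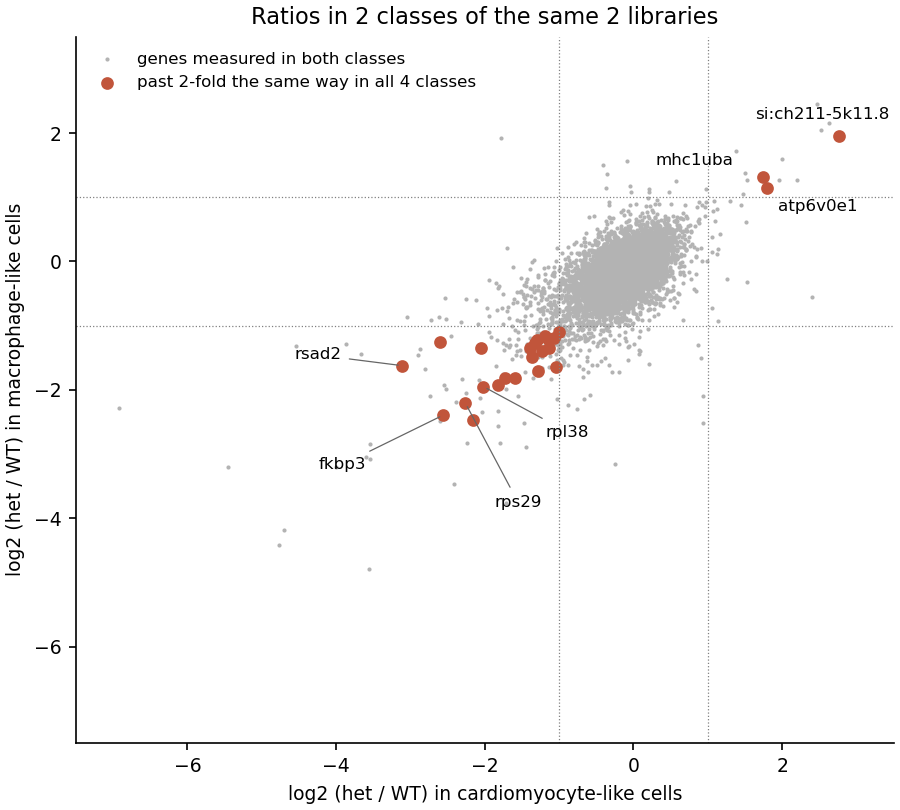
Log2 ratio of het over WT at 3 dpa for 9044 genes measured in both classes, in cardiomyocyte-like cells (horizontal) against macrophage-like cells (vertical), with dotted lines at 2-fold and the 25 genes past 2-fold in all 4 main classes in red. rps29 lies at -2.26 and -2.20, and atp6v0e1, mhc1uba and si:ch211-5k11.8 lie alone among the red points at the upper right.

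Interferon-stimulated genes, the antiviral programme switched on by interferon, stood lower in het in each of the 4 main classes. Over all cells 25 of 27 measured genes had ratios below 0, 6 were called lower and none higher, and the median was -0.53, against 4.13% of all genes called lower and a median of -0.07. Their summed level was 1515 CPM in WT and 1051 CPM in het. The radical-SAM antiviral enzyme gene rsad2 had 53.9 CPM in WT and 12.5 CPM in het, a log2 ratio of -2.10, with a UMI in 1101 and 355 cells. The Mx-family GTPase genes mxb (14.9 and 3.02 CPM, ratio -2.31) and mxe (-1.22), the mitochondrial nucleotide kinase gene cmpk2 (-1.97) and the tetratricopeptide genes ifit10 (-1.91) and ifit8 (-1.59) were the other called genes. The more abundant members stayed under 2-fold: isg15, a ubiquitin-like modifier, had 186 and 132 CPM (-0.49) and the signal transducer stat2 286 and 219 CPM (-0.38). The members above 0 were the chemokine cxcl11.1 (25.3 and 33.6 CPM, ratio 0.41) and the guanylate-binding gene gbp3 (0.13).

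Among the 4 main classes the list median was lowest in cardiomyocyte-like cells, at -0.96 against -0.11 for all genes of that class. Of 26 measured genes 12 were called lower and 25 stood below 0, where 3.88% of all genes of the class were called lower. ifit10 had 7.78 CPM in WT and 0.334 CPM in het there (-4.54, interval -5.61 to -3.65), mxb -3.60, rsad2 50.7 and 5.88 CPM (-3.11, interval -3.34 to -2.89), irf7, a transcription factor that amplifies the response, -1.76, and isg15 -1.34. Among the called genes cmpk2 (74 and 6 UMIs), ifit10 (393 and 10), ifit8 (542 and 22) and mxb (123 and 6) reached the UMI minimum in WT only. The count and median of this class thus rest in part on members picked by their own direction. Among cardiomyocyte-like cells of at least 5000 UMIs the list median was -1.18. In macrophage-like cells the sum was 2811 CPM in WT and 2186 CPM in het, 5 of 27 genes were called lower and the median was -0.47 against -0.13, with 4.3% of genes called in either direction. There mxb had a ratio of -3.05, rsad2 -1.62 and isg15 495 and 357 CPM (-0.47), while cxcl11.1 was at 74.4 and 119.8 CPM (0.69). Of the called genes mxb (389 and 32 UMIs) and cmpk2 (60 and 16) reached the UMI minimum in WT only. In epicardial/fibroblast-like cells all 24 measured genes stood below 0, 5 were called lower and the median was -0.63 against -0.03, with 3.68% of genes called. One of these calls, cxcl11.1 (-1.70), came from 138 WT UMIs of which 108 lay in 1 cell. With 28 het UMIs it reached the UMI minimum in WT only. In endothelial-like cells all 11 measured genes stood below 0, 5 were called lower and the median was -0.76 against 0.02, with 6.73% of genes called. rsad2 was at 327 and 63.5 CPM (-2.36, interval -2.79 to -1.96) and isg15 at 557 and 238 CPM (-1.22). dhx58, a helicase of the RNA-sensing pathway, had a ratio of -1.69. Of the WT UMIs, 49 of 266 for rsad2 and 60 of 453 for isg15 lay in 1 cell, and in het 47 of 229 for isg15. dhx58 (74 and 27 UMIs) and mxe (76 and 33) reached the UMI minimum in WT only. The endothelial-like count and median thus rest in part on members picked by their own direction. At the other stages the all-cell ratio of rsad2 was 0.50 (sham) and -1.54 (7 dpa).

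**Figure D3:**
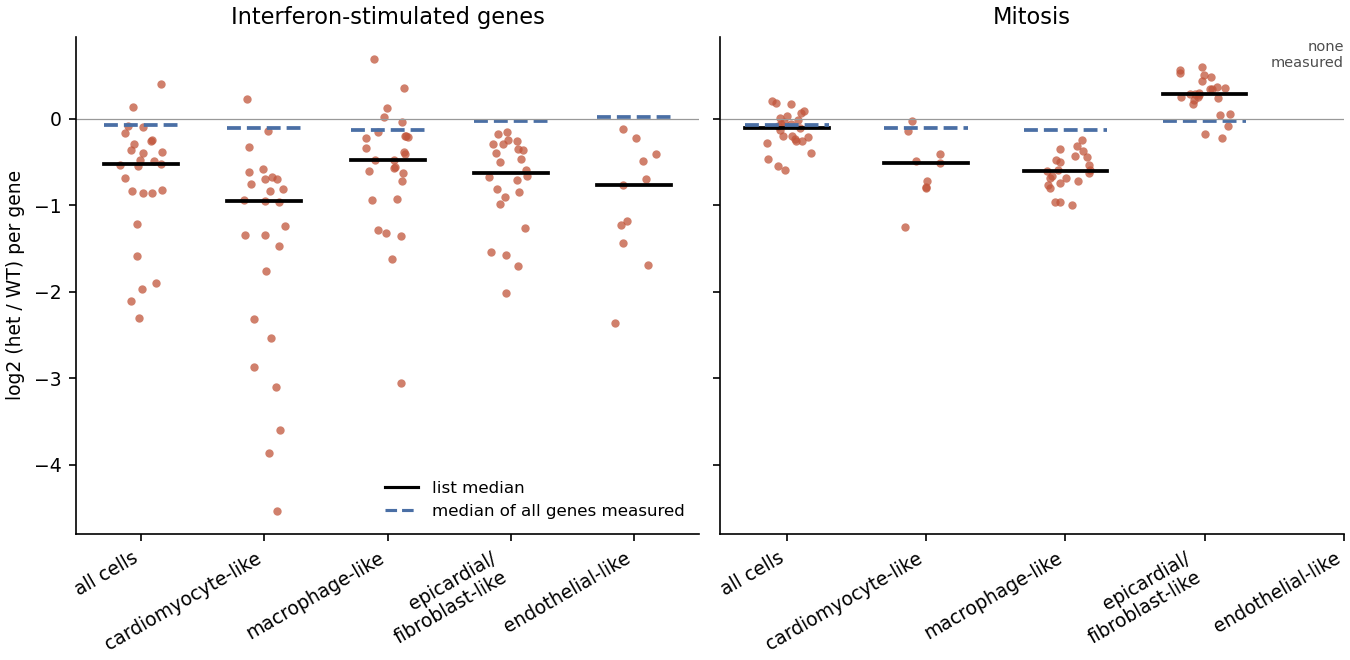
Log2 ratio of het over WT at 3 dpa for each measured gene (point) of the interferon-stimulated list (left) and the mitosis list (right), by cell class, with the list median in black and the median of all genes measured in that class dashed. Interferon-list medians run from -0.47 in macrophage-like to -0.96 in cardiomyocyte-like cells, and mitosis medians are -0.60 in macrophage-like and 0.28 in epicardial/fibroblast-like cells.

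In macrophage-like cells, chemokine and chemokine receptor genes moved in both directions, a fatty acid carrier was lower in het, and interleukins and TNF genes showed no call. Of 10776 genes measured in this class 49 (0.455%) were higher and 414 (3.84%) lower in het, with a median ratio of -0.13. The kinesin gene kif9 was highest among named genes, with 7.21 CPM in WT and 48.6 CPM in het, a ratio of 2.75 (2.51 to 3.00), and a UMI in 60 and 210 cells. The sulfotransferase gene sult1st7 followed with 6.65 CPM in WT and 20.3 CPM in het (1.61, interval 1.33 to 1.90). si:dkey-187j14.8 (1.59) and AL935300.2 (1.49) were the other higher genes named, with no role given here. The ratio of the chemokine ccl39.7, 8.24 and 24.4 CPM (1.56), came from 149 and 80 cells, and 250 of its 386 het UMIs lay in 1 cell. At the lower end loc564660 had 56.2 CPM in WT and 0.379 CPM in het (-7.21, interval -8.66 to -6.09) in 113 and 5 cells, CABZ01000634.1 a ratio of -3.20, and si:dkey-7i4.24 188 and 32.7 CPM (-2.53). jac3 was at 64.9 and 10.7 CPM (-2.59, interval -2.83 to -2.36) in 98 and 20 cells, and the chemokine ccl34b.8 at 217 and 30.6 CPM (-2.83, interval -2.97 to -2.70) in 732 and 192 cells. In WT 327 of 1503 jac3 UMIs, and in het 46 of 170, lay in 1 cell.

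Of 18 chemokines and receptors measured in macrophage-like cells 2 were called higher and 5 lower, with a median of -0.57. Of all genes of the class 0.455% were higher and 3.84% lower, with a median of -0.13. The receptor cxcr1, through which Cxcl8 attracts phagocytes, had 55.4 CPM in WT and 16.8 CPM in het (-1.72, interval -1.92 to -1.53) in 300 and 147 cells, and the ligand cxcl18b had 11 and 3.92 CPM. The other lower ligands, ccl25b (-2.10), ccl34b.4 and ccl38.6, each drew a large part of their WT UMIs from 1 cell: 133 of 282, 34 of 58 and 36 of 54. With 45, 10 and 4 het UMIs these ligands reached the UMI minimum in WT only. The count and median of the list thus rest in part on members picked by their own direction. The ligand cxcl19 was higher, at 4.53 and 16.3 CPM (1.85, interval 1.51 to 2.19), as was ccl35.2, at 7.64 and 17.2 CPM (1.17), with 88 of its 272 het UMIs in 1 cell. The most abundant ones were not called: ccl35.1 was at 1341 and 1965 CPM (0.55), and cxcr4b, the receptor of Cxcl12, at 672 and 641 CPM (-0.07). None of 20 interleukin and TNF genes was called. The inflammatory cytokines il1b and tnfb were at 571 and 817 CPM (0.52) and 304 and 428 CPM (0.49).

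In macrophage-like cells, where 3.84% of all genes were called lower, 1 of 22 genes of lipid handling and the lysosome was. This was fabp11a, a cytosolic fatty acid carrier, at 5292 CPM in WT and 2383 CPM in het, a ratio of -1.15 (-1.17 to -1.13), in 1937 and 1168 cells. grn1, a zebrafish granulin gene, was at 22832 and 40990.4 CPM (0.84, with -0.87 in the sham pair). None of 15 genes of iron handling was called, with the ferritin fth1a at 3647 and 6152 CPM (0.75) and the iron exporter slc40a1 at -0.83. Of the antigen presentation genes, mhc1uba (1.31) and mhc1uka (139.9 and 55 CPM, ratio -1.35) moved in opposite directions, while the class II chaperone cd74a stayed at -0.15. Class I genes have similar copies, so these ratios are uncertain. The complement gene c4b had a ratio of -1.53 and the early response factor fosaa of -1.41. In WT 35 of 135 c4b UMIs, and in het 14 of 32, lay in 1 cell. Both c4b and fosaa (121 and 31 UMIs) reached the UMI minimum in WT only. Some genes were low in macrophage-like cells relative to the median of the other main classes, an order set after the values were seen. The G0/G1 switch gene g0s2 had 158 and 63.9 CPM (-1.31), with 273 of its 1012 het UMIs in 1 cell. Its ratio was 0.87 in cardiomyocyte-like and 2.98 in epicardial/fibroblast-like cells. The ferritin-like genes fthl28 and fthl31 had ratios of -1.09 and -2.34. In cardiomyocyte-like cells theirs were -0.33 and -2.04, so fthl31 was low there too. In epicardial/fibroblast-like cells they were 3.60 and 1.40, with 540 of 680 het fthl28 UMIs in 1 cell.

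**Figure D4:**
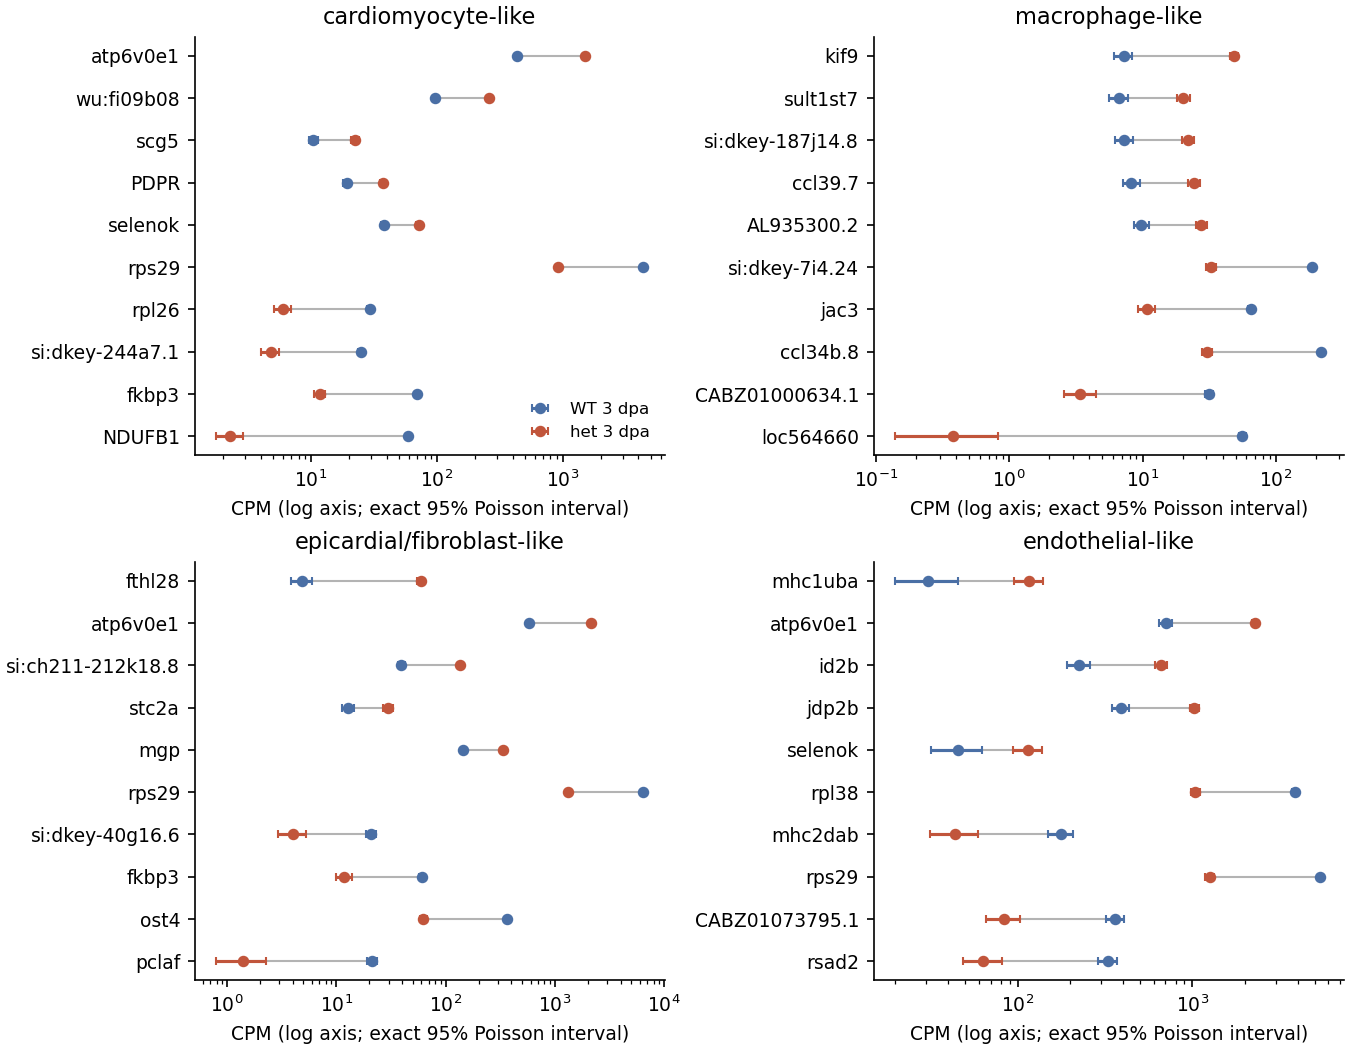
Level of the 5 highest and 5 lowest named genes by ratio in each of the 4 main classes, as CPM on a log axis with exact 95% Poisson intervals, in WT 3 dpa (blue) and het 3 dpa (red). The lower genes are apart by more than their counting intervals in each class, as loc564660 in macrophage-like cells at 56.2 CPM in WT and 0.379 CPM in het, and rps29 and atp6v0e1 recur across classes.

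Mitosis genes had ratios below 0 in macrophage-like cells and mostly above 0 in epicardial/fibroblast-like cells. Replication genes were mostly below 0 in the former and had a median of 0.01 in the latter. In macrophage-like cells all 23 measured mitosis genes had ratios below 0, with a median of -0.60 and a sum of 794 CPM in WT and 525 CPM in het, and 1 was called, the spindle motor kif11 at 38.2 and 19.1 CPM. The proliferation antigen mki67 was at 138 CPM in WT and 97.4 CPM in het, a ratio of -0.51 (-0.59 to -0.42), in 435 and 236 cells. The topoisomerase top2a was at 89.2 and 59 CPM (-0.60), the kinase cdk1 at -0.74 and its cyclin ccnb1 at -0.60. Of 22 replication genes 21 stood below 0, with a median of -0.28, and 1 was called, the thymidylate synthase tyms at a ratio of -1.16. The sliding clamp pcna was at 233 and 162 CPM (-0.53). Of all genes of the class 3.84% were called lower, with a median of -0.13. The 1 call in each of these 2 lists is therefore not read as a result about the list. In epicardial/fibroblast-like cells 21 of 24 mitosis genes stood above 0 and none was called. Their median was 0.28 against -0.03 for all genes of that class, with sums of 873 and 1077 CPM. cdk1 was at 42.8 and 64.7 CPM (0.60) and mki67 at 107 and 111 CPM (0.05) there, and the replication median was 0.01 over 21 genes. The summed level of all 22 replication genes in this class was 1552 CPM in WT and 1480 CPM in het. The difference between the classes was not tested. pclaf, the PCNA-associated factor, went apart from the other replication genes in both classes, at 14.5 and 1.01 CPM (-3.85) in macrophage-like and 21.2 and 1.39 CPM (-3.94, interval -4.76 to -3.22) in epicardial/fibroblast-like cells, with 1.94 in the latter at 7 dpa.

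Because depth differed, each cell was also thinned to 1000 UMIs and counted when at least 2 of them fell on the 47 cell-cycle genes. In macrophage-like cells that held for 621 of 2381 WT cells (26.1%) and 397 of 2144 het cells (18.5%), a log2 ratio of -0.49 (-0.68 to -0.31), against 54.3 and 41.5% unthinned. Shallower cells, 369 in WT and 229 in het, were left out. In epicardial/fibroblast-like cells the thinned shares were 31.6% (270 of 854) and 27.0% (232 of 858), a ratio of -0.23 (-0.48 to 0.03), while the summed level was 2427 CPM in WT and 2558 CPM in het, so no order is read from the share. Erythrocyte-like cells, taken as a background because mature red cells do not divide, gave 1 of 73 in WT (1.37%) and 0 of 67 in het, where 3 counts would be 4.48%; the exact intervals reach 7.40% in WT and 5.36% in het. The cardiomyocyte-like shares were 1.65% (51 of 3084) and 0.78% (21 of 2692), a log2 ratio of -1.08 (-1.89 to -0.32). The endothelial-like shares were 6.39% (17 of 266) and 3.56% (12 of 337), a ratio of -0.84 (-2.04 to 0.31). These shares lay under those bounds and are not read as a difference. The bounds are wide because few erythrocyte-like cells were left, so they cannot show whether these shares are background. Mural-like cells had 15 of 64 and 5 of 70, a ratio of -1.71 (-3.53 to -0.18).

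**Figure D5:**
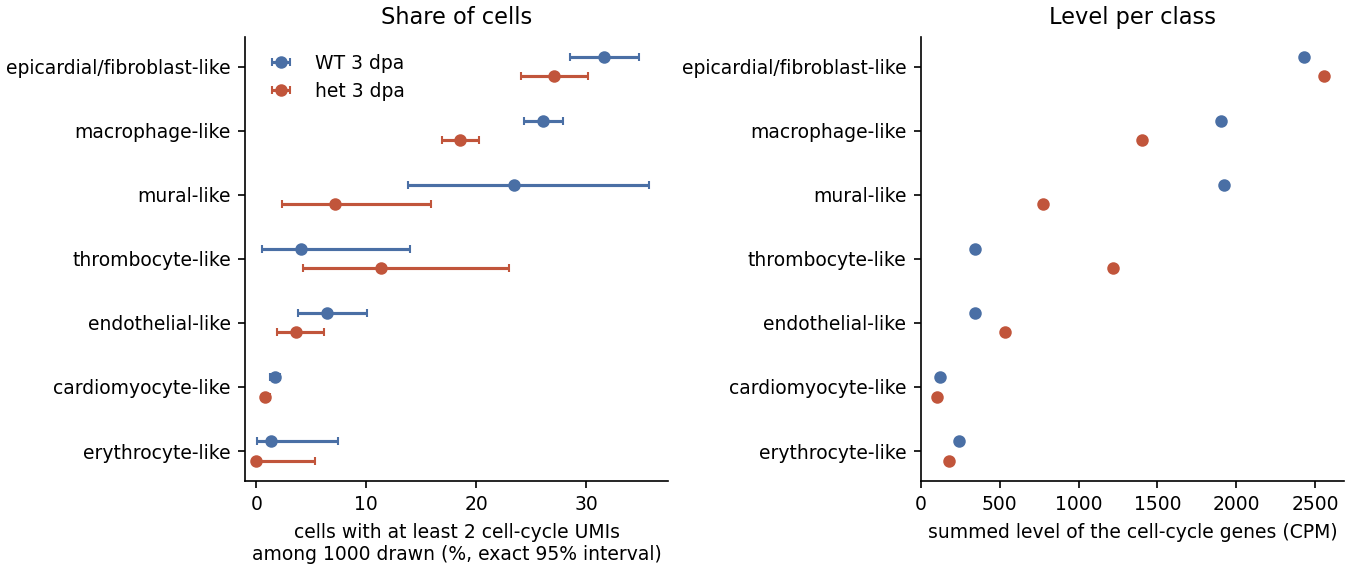
Left, percentage of cells with at least 2 UMIs of 47 cell-cycle genes among 1000 UMIs drawn per cell, with exact 95% binomial intervals; right, summed CPM of the same genes, in WT (blue) and het (red) 3 dpa cells by class. Macrophage-like cells stand at 26.1% in WT and 18.5% in het with levels of 1905 and 1404 CPM, while epicardial/fibroblast-like cells had 2427 and 2558 CPM.

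In epicardial/fibroblast-like cells, the matrix and signalling genes of the wound showed few differences. Of 10522 genes measured, 59 (0.561%) were higher and 328 (3.12%) lower in het, with a median of -0.03. None of 22 collagens, 19 wound matrix genes, 7 metalloproteinases and their inhibitors, 11 genes of retinoic acid signalling or 21 genes of TGF-beta and BMP signalling was called. The collagen median was 0.03, with the fibrillar col5a1 at 3658 and 3564 CPM (-0.04) and col1a1b at 3376 and 2503 CPM (-0.43). Fibronectin fn1b, a matrix protein of the regenerating epicardium, was at 3049.8 and 4853 CPM (0.67), and periostin postnb at 484 and 302 CPM (-0.68). rbp4, the retinol carrier, was at 747 and 1278 CPM (0.78), and aldh1a2, which makes retinoic acid, at 637 and 556 CPM (-0.20). Of 6 ErbB pathway genes, the ligand hbegfb was called higher at 3.31 and 10.6 CPM (1.68), in 28 and 19 cells with 44 of 122 het UMIs in 1 cell, while the cardiomyocyte mitogen nrg1 was at -0.51.

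Outside those lists mgp was at 146 CPM in WT and 332 CPM in het, a ratio of 1.19 (1.12 to 1.26), and si:ch211-212k18.8 at 39.2 and 136 CPM (1.79, interval 1.66 to 1.92). The glycoprotein hormone gene stc2a was at 12.8 and 29.6 CPM, with 105 of 341 het UMIs in 1 cell. The highest ratio, 3.60 for the ferritin-like fthl28, came from 69 and 43 cells, and 540 of its 680 het UMIs lay in 1 cell; as a mean over cells it was 1.54. The lowest genes after pclaf were ost4 (-2.56), fkbp3 (-2.38), si:dkey-40g16.6 (-2.37) and rps29 (-2.29). The markers that defined the class shifted among themselves, which is a description since they set its members. tcf21 was at 69.3 and 151 CPM and the fibroblast matrix gene dpt at 105 and 188 CPM, while the epicardial factors tbx18 and wt1b were at 136 and 65.2 CPM and at 9.36 and 3.73 CPM. col1a2, at 3248 and 3074 CPM, stood close together in the 2 libraries.

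In endothelial-like cells, the BMP target id2b was higher in het, while 4 genes of antigen presentation and 1 each of coagulation and Notch signalling were lower. Of 2007 genes measured, 36 (1.79%) were higher and 99 (4.93%) lower. With TMM scaling these counts were 55 and 73, which moved the share of higher genes among the calls from 26.7 to 43.0%. id2b, an inhibitor of bHLH factors and target of BMP, was at 224 CPM in WT and 660.0 CPM in het, a ratio of 1.56 (1.32 to 1.81), in 99 and 199 cells, with 0.86 in the sham pair and -0.16 at 7 dpa. Its relatives id1 and id3 were at 984 and 1369 CPM (0.48) and a ratio of 0.87, and the ligand bmp6 was lower at 73.7 and 34.4 CPM (-1.10, interval -1.76 to -0.47). With 60 and 33 UMIs bmp6 reached the UMI minimum in WT only, and 16 of its WT UMIs lay in 1 cell. The 9 measured genes of that list had a median of 0.22. jdp2b, a repressor of the AP-1 family, was at 389.5 and 1026 CPM (1.40, interval 1.21 to 1.58), and selenok, a selenoprotein of the endoplasmic reticulum, had a ratio of 1.33.

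Von Willebrand factor, vwf, which endothelium and platelets secrete to bind platelets to the vessel wall, was at 598 CPM in WT and 298 CPM in het, a ratio of -1.01 (-1.22 to -0.79), the only 1 of 5 coagulation genes measured that was called. Its interval reaches under 2-fold. In WT 90 of 487 vwf UMIs, and in het 36 of 286, lay in 1 cell. The Notch ligand dlc had a ratio of -1.21, while notch1b and the target her6 had -0.31 and -0.15, out of 8 Notch genes measured. The dlc call rests on 55 and 28 UMIs, and dlc reached the UMI minimum in WT only. Of 9 genes of antigen presentation 1 was higher, mhc1uba at 30.7 and 116 CPM (1.91), and 4 were lower: the class II gene mhc2dab at 177 and 43.7 CPM (-2.02, interval -2.55 to -1.51), its chaperones cd74b at 548 and 230.1 CPM (-1.25) and cd74a at 759 and 355 CPM (-1.10), and mhc1uka (-1.23). Of all genes of the class 1.79% were higher and 4.93% lower. mhc1uba (25 and 111 UMIs) reached the UMI minimum in het only and mhc2dab (144 and 42) in WT only. These calls were thus picked by their own direction. In macrophage-like cells, which hold most class II RNA, mhc2dab had a ratio of -0.10. The macrophage marker sum in endothelial-like cells was 968 and 688 CPM, and its part in the class II ratios was not tested. At the other stages mhc2dab in endothelial-like cells had ratios of -1.49 (sham) and -1.55 (7 dpa). The markers of the class moved in both directions. The VEGF receptor kdrl was at 779 and 492 CPM, and plvapb, which forms the diaphragms of vessel pores, at 736 and 246 CPM, while aqp8a.1 was at 2491 and 4016 CPM, spock3 at 4479 and 5579 CPM and the junction cadherin cdh5 at 1827 and 1973 CPM. The part of this shift in the ratios of vwf, id2b and dlc was not tested. None of 22 immediate early genes was called.

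In cardiomyocyte-like cells, genes of the sarcomere, the cardiac transcription factors, fatty acid oxidation, glycolysis and heat shock showed no call, calcium handling showed 1, and respiratory chain and interferon genes showed several. Of 11036 genes measured, 50 (0.453%) were higher and 428 (3.88%) lower in het, with a median of -0.11; as mean CPM per cell these counts were 195 and 578, and the share of higher genes among the calls moved from 10.5 to 25.2%. None of 18 sarcomere genes was called and their median was -0.13. tpm4a, the main tropomyosin of the zebrafish heart, was at 9744 and 10711 CPM (0.14), titin ttn.1 at 7826 and 6767 CPM (-0.21), and the atrial myosin myh6 at 305 and 574 CPM (0.91), with its UMIs in 185 and 191 cells. None of 13 cardiac transcription factors was called, with nkx2.5 at a ratio of 0.31 and mef2cb at -0.60. The stress hormone genes nppa and nppb were at 2782 and 3175 CPM (0.19) and 973 and 1122 CPM (0.20). Of 11 calcium-handling genes the kinase camk2d2 was called lower, at 32.6 and 14.9 CPM (-1.13, interval -1.28 to -0.98) in 1107 and 393 cells. No gene of 20 for fatty acid oxidation, 29 for glycolysis and 24 heat shock proteins was called, while 8 nuclear genes of oxidative phosphorylation were lower around a list median of 0.09.

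Among the genes lowest in het in cardiomyocyte-like cells, NDUFB1 was at 58.8 CPM in WT and 2.27 CPM in het (-4.69, interval -5.06 to -4.35) in 1690 and 63 cells, rpl26 at 29.5 and 5.98 CPM (-2.30), fkbp3 at a ratio of -2.56 and si:dkey-244a7.1 at -2.39. Higher were atp6v0e1 at 431 and 1501 CPM, wu:fi09b08 at 96.3 and 261 CPM (1.44, interval 1.39 to 1.49) and the neuroendocrine chaperone scg5 at 10.5 and 22.5 CPM. PDPR (0.96) and selenok (0.92) came next and stayed under 2-fold. Of 28 clock genes 2 were lower, the repressor cry1b (-1.03) and the activator arntl1b (-1.24), where 3.88% of all genes of the class were lower, and the list median was -0.16 against -0.11. With 60 and 15 UMIs arntl1b reached the UMI minimum in WT only. None of 14 glucocorticoid response genes was called; hsd11b2, which inactivates cortisol, was at 1073 and 570.4 CPM (-0.91) and the receptor co-chaperone fkbp5 at 157 and 88.2 CPM (-0.83, with -2.74 in the sham pair and -1.64 at 7 dpa). Among cells of at least 5000 UMIs, 2672 in WT and 2122 in het, 36 genes were higher and 492 lower.

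The thrombocyte-like cells, the cells that the study's title is about, numbered 53 in WT and 68 in het, and 412 genes could be measured. Of these 22 (5.34%) were higher and 29 (7.04%) lower, 12.4% in all. The class held 0.105% of the UMIs in WT and 0.248% in het. Counting error and single cells weigh more at this size, so the share called is not compared with those of larger classes. Coagulation genes were not called: factor V, f5, was at 1688 and 1158 CPM (-0.54, interval -0.85 to -0.23, with -0.97 in the sham pair and -0.53 at 7 dpa), the tissue factor inhibitor tfpia at a ratio of -0.48 and the fibrin crosslinking factor f13a1b at -0.02. Of 5 chromatin genes of the high mobility group measured, 4 were called higher. Among them hmga1a (9 and 52 UMIs) and hmgb2b (12 and 53 UMIs) reached the UMI minimum in het only. The minimum thus picked these by their own direction, and the count is not read as a shift of the list. hmgn2 and hmgb2a reached it in both libraries. hmgn2 was at 805 CPM in WT and 6348 CPM in het, a ratio of 2.98 (2.66 to 3.32), in 36 and 54 cells with 148 of 981 het UMIs in 1 cell, and hmgb2a at 834 and 1779.5 CPM (1.09, interval 0.74 to 1.46) in 35 and 47 cells. The summed level of the 47 cell-cycle genes was higher too, at 345 CPM in WT and 1217 CPM in het (1.82, interval 1.30 to 2.37). The mitosis genes among them were at 38.4 and 887 CPM. Without thinning, 0% of WT and 7.35% of het cells had at least 2 mitosis UMIs. The interval of the level does not cover spread between cells. Cells with at least 2 cell-cycle UMIs after thinning numbered 2 of 49 in WT and 6 of 53 in het. The log2 ratio of these shares was 0.89 (-1.01 to 4.81), within counting error. The part of these cells in the levels of the chromatin genes was not tested. Of 7 heat shock genes measured, 5 were called lower, with a median of -1.79 against 0.10 for all genes. hsp70l was at 633 and 175 CPM (-1.86, interval -2.56 to -1.19) in 22 and 16 cells. The co-chaperone dnajb1b was at 901 and 51.8 CPM (-4.12), with 37 of 94 WT UMIs in 1 cell. dnajb1b (94 and 8 UMIs), hsp70.2 (77 and 33), hsp70l (66 and 27) and hsp70.3 (56 and 38) reached the UMI minimum in WT only. Only hsp90aa1.2 among the called genes, with 137 and 55 UMIs, reached it in both libraries. The count and median rest on members picked by their own direction and are not read as a shift of the list. The same list had medians of -0.28 in macrophage-like and 0.06 in endothelial-like cells. bmp6 was at 518 and 136 CPM (-1.93, interval -2.73 to -1.18), and isg15 at 527 and 110.0 CPM (-2.26, interval -3.14 to -1.45). Both reached the UMI minimum in WT only, with 54 and 21 UMIs for bmp6 and 55 and 17 for isg15. In WT 13 of the bmp6 UMIs and 11 of the isg15 UMIs lay in 1 cell each. b2m, the light chain of MHC class I, had a ratio of -1.02. All 9 measured immediate early genes stood below 0, with a median of -0.56 and no call.

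In erythrocyte-like cells 12 of 322 measured genes were higher and 10 lower (3.73 and 3.11%, 6.83% in all, median 0.25); with TMM scaling the counts were 6 and 14, and the share of higher genes among the calls moved from 54.5 to 30%. The alpha globin hbaa1 was at 194224 and 80289 CPM and the beta globin hbba1 at 203303 and 182919 CPM, as a description since globins set the class. Globin genes have near-identical copies, and si:ch211-5k11.8 was higher in het where hbaa1 was lower. The nucleic acid binding protein genes ybx1 and cnbpb were at 567 and 1274 CPM (1.17, interval 0.90 to 1.44) and 151 and 326 CPM (1.11, interval 0.58 to 1.66); thinned to equal depth, the cnbpb ratio was -0.0018. In het 62 of 391 ybx1 UMIs lay in 1 cell, as did 20 of 100 cnbpb UMIs. zgc:152791, an interferon-inducible gene with the RefSeq symbol ifi27.2, was at 515 and 186 CPM (-1.47, interval -1.94 to -1.02), and rps29 and rpl38 again stood lower, at -1.91 and -1.66.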

How the data were processed

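Single ventricular cells were profiled with a 3′ droplet kit in 1 library per genotype and stage. The authors deposited 1 matrix of unnormalised UMI counts per library, with Cell Ranger 3.0.2, Seurat 3.1.4 and the build GRCz11 named in the submitters' processing notes without their settings; how barcodes were called cells is not given in the sources used here. Samples were grouped by the genotype and treatment labels, and by the titles for the sham libraries, whose treatment label reads untreated.

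Kept cells had at least 500 UMIs, 200 genes and at most 30% mitochondrial UMIs. A cell took a class when its markers held at least 3 UMIs of at least 2 markers, reached 0.15 of the typical level of that class and led the next class by the margin of 0.5. Identifiers with the same symbol (528 symbols) were summed. CPM are the summed UMIs of a class in a library over its class total. Log2 ratios set counts under 3 to 3 and carry exact conditional binomial 95% intervals, shares exact Clopper-Pearson intervals, and levels exact Poisson intervals. PCR duplicates were removed by the UMIs, but cells of 1 library are not independent animals. A list member was left out of its list in a class that it marks.

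Named genes needed at least 100 UMIs and 20 CPM in the higher library, a UMI in at least 20 cells and a class level of at least 0.25 of the highest class, and were not markers of the class in which they were ranked. The 10 highest and 10 lowest were taken over all cells, 5 each in the 4 main classes and 3 each in other classes with at least 100 cells in both libraries, with npas4l, its neighbours and, per list, members past 2-fold (up to 4) and the 2 most abundant ones. The comparison, the lists and the rule were chosen with earlier results of these data known. Library-wide genes, genes ranked relative to other classes, the UMIs of a gene's top cell and a few alternatives were chosen after these values were seen.

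Neighbours and synonyms came from a RefSeq table of assembly GRCz12tu, which differs from the build of the files, so no coordinates are given. The ratios and intervals were tested on simulated data. Alternatives were TMM scaling (edgeR 4.0.16, R 4.3.3), mean CPM per cell, equal class weights, thinned counts, other minimums, a stricter class rule and removal of likely doublets with Scrublet (scanpy 1.11.5). Python 3.11.15 with numpy 2.4.6, scipy 1.17.1, pandas 2.3.3 and matplotlib 3.10.9 did the rest.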

Additional observations from a re-analysis of the deposited data

Results flagged for a closer look

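Of 44 named genes, 10 were past 2-fold in one direction at 3 dpa and past 2-fold in the other direction in the sham or the 7 dpa pair of libraries, with at least 50 UMIs in 1 library of that pair. pclaf in epicardial/fibroblast-like cells, with 10 and 45 UMIs at 7 dpa, was under that minimum. With 1 library per group these differences between stages were not tested. At 7 dpa the all-cell log2 ratio of het over WT was -1.27 for aqp8a.1 (1.37 at 3 dpa), 1.25 for ccl34b.8 (-2.79) and 1.04 for fkbp3 (-2.49). In the sham pair it was 1.46 for NDUFB1 (-4.62 at 3 dpa) and 1.00 for ost4 (-2.37). In cardiomyocyte-like cells atp6v0e1 stood at -1.03 at 7 dpa, with 1214 CPM in WT and 594 CPM in het, against 431 and 1501 CPM at 3 dpa.

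In macrophage-like cells sult1st7 stood at -2.02 at 7 dpa (6.75 and 1.66 CPM) against 1.61 at 3 dpa, ccl39.7 at -1.10 at 7 dpa (33.5 and 15.6 CPM) against 1.56, and si:dkey-187j14.8 at -1.30 in the sham pair (20.7 and 8.41 CPM) against 1.59. In endothelial-like cells rpl38 stood at 1.01 in the sham pair (2398 and 4825 CPM) against -1.89 at 3 dpa.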

How the results depend on the processing

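No paired analysis was possible because each genotype has 1 library per stage, and leaving out a replicate was not possible for the same reason. The counts of genes past 2-fold followed the minimum, the added CPM and the depth. Over all cells the 122 higher and 621 lower genes became 320 and 1420 at a minimum of 10 UMIs, 6 and 48 with 10 CPM added, and 38 and 221 in thinned counts. In the same order of settings the genes called either way became 1326, 46 and 140 in cardiomyocyte-like cells (773 as mean CPM per cell), 1338, 69 and 146 in macrophage-like, 1271, 56 and 76 in epicardial/fibroblast-like (585 as mean CPM per cell), and 1125, 87 and 54 in endothelial-like cells. With 10 CPM added the interferon medians were -0.59 in cardiomyocyte-like and -0.34 in epicardial/fibroblast-like cells and the mitosis median of macrophage-like cells -0.39. Over all alternatives the interferon median stayed below 0, between -0.68 and -0.40 over all cells.

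Class shares reversed for cardiomyocyte-like and macrophage-like cells: on cells of at least 1000 UMIs the log2 ratios were -0.031 and 0.014, with 0.17 for epicardial/fibroblast-like and 0.041 for erythrocyte-like cells. With cells thinned before classing they were -0.040, -0.00114, 0.30 and 0.0023, and the stricter class rule gave 0.33 for erythrocyte-like cells. TMM scaling moved the median of all genes by 0.13 in macrophage-like, 0.11 in endothelial-like and -0.17 in erythrocyte-like cells. Of the 64 named values past 2-fold, 652 of 689 alternative values stayed past 2-fold the same way and 1 reversed, cnbpb in erythrocyte-like cells at -0.0018 when thinned. The ccl39.7 ratio went from 1.56 to 0.28 as mean CPM per cell. si:ch211-5k11.8 went from 1.53 to 0.97 with equal class weights. The causes were not tested. Depth limited the small classes: 50 UMIs in the library with fewer UMIs of the class were 175 CPM in erythrocyte-like and 61.4 CPM in endothelial-like cells, against 1.67 CPM in cardiomyocyte-like cells. With no second library, spread between fish or preparations is unknown.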
